A study of Mus musculus with 20 samples.

Results

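The genes described are 9 genes of the eosinophil, basophil and mast cell lineages, taken by symbol from a fixed list and all found among the 37620 genes counted in bulk mouse bone marrow. Of these, 5 were grouped here with eosinophils (Prg2, Prg3, Epx, Il5ra and Ccr3). The other 4 were grouped with basophils and mast cells (Mcpt8, Cpa3, Ms4a2 and Fcer1a). The marrow came from 20 recipient mice in 4 groups of 5, in which the U2AF1(WT) and the U2AF1(S34F) genotype were each treated with vehicle or with sudemycin D6. Every mouse carried donor marrow with the rtTA transactivator and a doxycycline-inducible U2AF1 transgene, either wild type or the S34F mutant of this splicing factor, so the control genotype also expressed a transgene. Donors of 8 to 12 weeks were pooled by 2 to 3 per transplant into irradiated recipients of 6 to 12 weeks, so donor marrow was shared between recipients, the host kept its own stroma, and p-values measure the spread between recipients. After at least 6 weeks of engraftment all mice received doxycycline chow at 625 ppm for 7 days, and for the last 5 of those days infusions of vehicle or of sudemycin D6, a compound that modulates splicing, at 50 mg per kg per day, with an interval of 18 h between the last dose and RNA preparation.

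Eosinophils store major basic protein, eosinophil peroxidase and related cationic proteins in their granules, grow under interleukin 5 and migrate towards eotaxins through the receptor Ccr3. Basophils and mast cells carry the high-affinity IgE receptor on their surface and store proteases in their granules, and both lineages, like eosinophils, depend on GATA transcription factors. All of these cells are rare in marrow. In bulk samples fewer cells of a type and less RNA per cell cannot be told apart, and that holds for every level below.

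Levels are given in CPM, scaled to a common total. Each count was divided by the library's total over genes that passed the low-count filter, times its TMM normalization factor. Gene counts summed to between 41145892 and 62138138 per mouse (median 51836276). Every U2AF1(WT) mouse had between 39145 and 78640 Xist counts and every U2AF1(S34F) mouse between 1 and 8, and summed Y-linked counts were 0 to 4 and 10270 to 15034, so genotype and sex cannot be told apart, while the drug was compared within each. U2af1 itself, counted without regard to the transgene's allele, was higher in U2AF1(S34F) mice under vehicle by 0.48 on the log2 scale (SE 0.07, adjusted p = 0.000294, edgeR with Benjamini-Hochberg adjustment). Of the genes that define mast cells of connective tissue, Tpsab1 had no reads in any mouse. Tpsb2 and Mcpt4 had at most 2 counts and Cma1 at most 24. With a floor set at 3 counts, or 0.0483 to 0.0729 CPM by library, these markers of mature mast cells were at the floor or low. In the U2AF1(S34F) group under sudemycin D6, replicate 2 stood apart in Mcpt8, Cpa3, Ms4a2 and Fcer1a, and results that rest on it are given with and without it.

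Because these lineages depend on GATA factors, GATA motifs were searched in the promoters, and 5 promoters are shown: the 2 with most matches, the 2 with none, and that of Il5ra, whose start is described next. RefSeq gave a start site for 8 of the 9 genes in GRCm38.p6, and the 250 bases before the start are printed 5′ to 3′ on the strand of the gene, with capitals marking GATA preceded by A or T and followed by A or G, on either strand.
Ms4a2 (chr19:11623720-11623969, minus strand): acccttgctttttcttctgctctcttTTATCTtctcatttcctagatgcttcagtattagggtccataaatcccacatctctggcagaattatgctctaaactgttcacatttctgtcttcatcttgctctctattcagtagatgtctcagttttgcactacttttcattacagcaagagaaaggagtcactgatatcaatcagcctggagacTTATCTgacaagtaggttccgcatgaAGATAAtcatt
Ccr3 (chr9:124021721-124021970, plus strand): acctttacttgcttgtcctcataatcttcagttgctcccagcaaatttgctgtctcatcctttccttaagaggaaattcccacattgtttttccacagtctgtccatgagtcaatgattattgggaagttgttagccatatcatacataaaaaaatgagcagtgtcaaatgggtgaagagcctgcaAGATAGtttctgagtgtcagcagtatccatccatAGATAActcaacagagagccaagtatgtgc
Il5ra (chr6:106749038-106749287, minus strand): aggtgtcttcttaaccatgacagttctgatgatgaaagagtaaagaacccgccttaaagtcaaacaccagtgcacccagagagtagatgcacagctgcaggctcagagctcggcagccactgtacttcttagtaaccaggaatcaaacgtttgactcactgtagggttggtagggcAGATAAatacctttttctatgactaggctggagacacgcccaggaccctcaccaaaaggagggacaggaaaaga
Mcpt8 (chr14:56085198-56085447, minus strand): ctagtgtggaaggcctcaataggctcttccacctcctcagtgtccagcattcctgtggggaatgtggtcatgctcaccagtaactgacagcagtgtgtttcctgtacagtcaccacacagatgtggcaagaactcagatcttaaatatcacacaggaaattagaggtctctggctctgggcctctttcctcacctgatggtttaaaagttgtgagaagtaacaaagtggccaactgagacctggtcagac
Epx (chr11:87875537-87875786, minus strand): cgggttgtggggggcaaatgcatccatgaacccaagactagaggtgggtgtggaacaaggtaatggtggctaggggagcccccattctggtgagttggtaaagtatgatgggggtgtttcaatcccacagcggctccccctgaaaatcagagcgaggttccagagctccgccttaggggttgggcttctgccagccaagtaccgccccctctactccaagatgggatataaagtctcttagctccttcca
Ms4a2 held 3 matches, of which the nearest ended 6 bases before the start. Ccr3 held 2, and Prg3, Il5ra, Cpa3 and Fcer1a 1 each, so 6 of 8 windows held a match against 26.5% of all 32851 mouse windows of the same length. Epx and Mcpt8 held no match to these letters. A PU.1 motif (GAGGAAGT, either strand) was in none of the 8 and in 2.44% of all windows, and a C/EBP motif (TTGCNNAA, either strand) was in Fcer1a only and in 9.56% of all windows. These are matches of letters in a window and not sites of binding.

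Il5ra, which encodes the alpha chain of the interleukin 5 receptor, had junction reads upstream of its start in the gene annotation used here (NCBIM37). Such reads mark the end of an exon and not the start itself. The junction from the annotated first exon (chr6:106694342-106695067) had no reads in any of 20 mice. An unannotated junction that ended at position 106698841 had 155 reads in 17 mice, with 43 and 31 reads in U2AF1(WT) mice under vehicle and drug, and 40 and 41 in U2AF1(S34F) mice. The RefSeq promoter of Il5ra matched NCBIM37 exactly once and put the start at position 106699031, which is 3928 bases upstream of the annotated start and 190 bases from the end of that junction. For Epx, Ccr3, Cpa3, Ms4a2 and Fcer1a the RefSeq and annotated starts were the same base, and the annotated first-exon junction of Ccr3 had 657 reads in 20 mice.

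Per kilobase of exon, the eosinophil granule gene Prg2 was the most abundant of the 9 in every group. In vehicle-treated U2AF1(WT) mice its mean was 229 CPM per kb, followed by Mcpt8 at 72.8 and Epx at 15.1, with no overlap between the mice of Prg2 and Mcpt8 or between those of Mcpt8 and Epx. Fcer1a (13.2), Cpa3 (12.8), Prg3 (9.30) and Ms4a2 (6.68) followed on the same scale, and each neighbour from Epx to Ms4a2 overlapped the next in its range over mice. Ccr3 (2.18) and Il5ra (1.17) were lowest, apart from Ms4a2 and from each other. In sudemycin-treated U2AF1(S34F) mice Prg2 (97.8) and Mcpt8 (41.2) kept the lead per kb, Cpa3 (11.02) stood above Epx (9.51) and Fcer1a (8.94) with ranges that overlapped, and Ms4a2 (5.64) stood above Prg3 (3.29) without overlap, with Ccr3 at 1.17 and Il5ra at 0.750. Counts per mouse were 3453 to 11696 for Prg2, 127 to 494 for Prg3, 98 to 515 for Ccr3 and 87 to 332 for Il5ra, so the last 3 carry the largest counting error. All 9 genes passed the filter on low counts in every comparison.

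**Figure D1:**
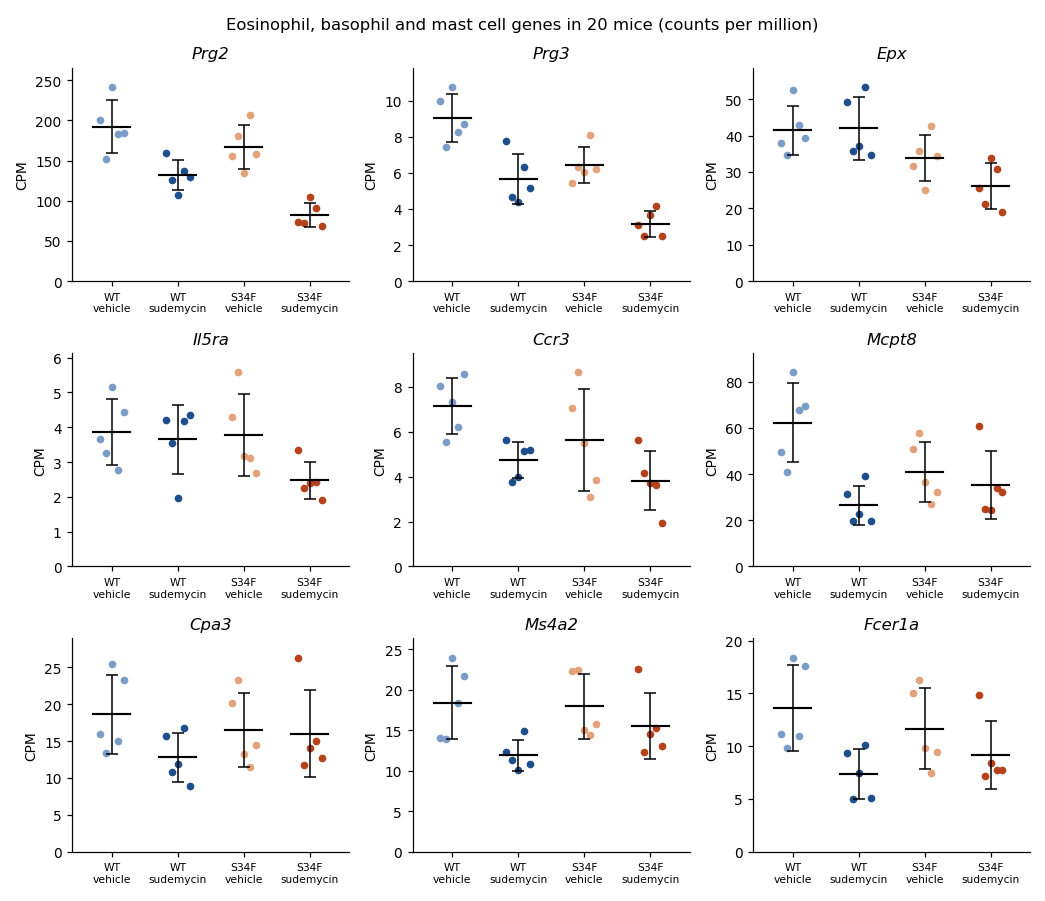
CPM (linear axis from 0) of the 9 genes in each of 20 mice, by genotype and treatment; points are mice, lines are means and bars are 1 SD (n = 5). The sudemycin-treated U2AF1(S34F) mice have the lowest Prg2 (68.5 to 104) and Prg3 (2.52 to 4.17), and 1 mouse of that group lies above the other 4 in Mcpt8, Cpa3, Ms4a2 and Fcer1a.

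Sudemycin D6 was first compared with vehicle in U2AF1(WT) mice. Of the 9 genes, 6 were lower at an FDR below 0.1 and none was higher, where 1.89% of all 14763 genes tested were called lower, and 8 of 9 had a negative log2 fold change. The median log2 fold change of the 9 was -0.60, beside 0.00 for all genes tested. The largest change was in Mcpt8, which encodes a granule protease restricted to mouse basophils (chr14:56701003-56704053, minus strand, NCBIM37). In CPM and in the order of the replicate numbers, Mcpt8 was 49.4, 40.7, 84.1, 67.5 and 69.6 in the 5 vehicle-treated mice and 31.6, 19.5, 22.7, 38.95 and 19.8 in the 5 treated mice. Every treated mouse lay below every vehicle-treated mouse, although the highest treated (39.0) and the lowest vehicle-treated value (40.7) were close. The group means were 62.2 ± 17.2 and 26.5 ± 8.51 (SD, n = 5 each), a 2.37-fold lower level (log2 fold change -1.25, SE 0.23, adjusted p = 0.0203, edgeR with Benjamini-Hochberg adjustment). Mcpt8 was the only 1 of the 9 whose groups did not overlap in this comparison, where 2.26% of all genes had every treated mouse below every vehicle-treated mouse.

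The chains of the IgE receptor were also lower in treated U2AF1(WT) mice, by less than Mcpt8 in the fold change. Fcer1a (chr1:175151402-175157360, minus strand), the chain that binds IgE, was 11.2, 9.85, 18.4, 10.9 and 17.6 under vehicle and 9.37, 4.97, 7.45, 10.1 and 5.10 under the drug, with the highest treated mouse (10.1) above the lowest vehicle-treated mouse (9.85). It was lower by 1.85-fold (log2 fold change -0.89, SE 0.24, adjusted p = 0.0976, edgeR). Ms4a2 (chr19:11690013-11698209, minus strand), the signal-amplifying beta chain, was 14.1, 13.9, 23.99, 18.4 and 21.7 under vehicle and 12.3, 11.3, 10.1, 14.96 and 10.9 under the drug. A single treated mouse, replicate 10, reached into the vehicle range, and the log2 fold change was -0.65 (SE 0.17, adjusted p = 0.0744, edgeR). Cpa3 (chr3:20115516-20142080, minus strand), a carboxypeptidase stored by mast cells and basophils, ranged from 13.3 to 25.5 under vehicle (median 15.96) and from 8.95 to 16.8 under the drug (median 11.8). Its log2 fold change of -0.55 (SE 0.21) did not pass (adjusted p = 0.270, edgeR).

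Among the eosinophil genes the granule proteins did not move as 1 block in U2AF1(WT) mice. Prg2 (chr2:84820618-84823789, plus strand), which encodes major basic protein, was 200.2, 152, 242, 183 and 185 under vehicle and 159, 126, 107, 137 and 129 under the drug. Prg3 (chr2:84828353-84834043, plus strand), a close paralog that lies next to it, was 9.98, 7.40, 10.8, 8.28 and 8.71 and 7.73, 4.65, 4.38, 6.34 and 5.14. For both genes only the highest treated mouse, replicate 6, reached into the vehicle range. Prg2 was 1.48-fold lower (log2 fold change -0.56, SE 0.13, adjusted p = 0.0498) and Prg3 1.61-fold lower (-0.69, SE 0.18, adjusted p = 0.0715, edgeR for both). Epx (chr11:87677502-87689038, minus strand), eosinophil peroxidase, was 37.95, 34.6, 52.4, 42.9 and 39.2 under vehicle and 49.3, 35.8, 37.1, 53.3 and 34.7 under the drug. The Epx groups covered the same range, with a log2 fold change of 0.00 (SE 0.15, adjusted p = 0.995, edgeR). Ccr3 (chr9:123936703-123946421, plus strand), the eotaxin receptor, was 7.33 at the median (5.56 to 8.56) under vehicle and 5.15 (3.75 to 5.63) under the drug, with a log2 fold change of -0.60 (SE 0.17) that only just passed (adjusted p = 0.09995, edgeR). Il5ra (chr6:106660378-106695103, minus strand) overlapped throughout, at 2.78 to 5.15 and 1.95 to 4.35 (log2 fold change -0.10, SE 0.24, adjusted p = 0.923, edgeR).

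Most of these calls in U2AF1(WT) mice did not hold in every fit that left out 1 mouse. The log2 fold changes then were -0.64 to -0.47 for Prg2, -0.83 to -0.61 for Prg3 and -0.68 to -0.53 for Ccr3. They were -0.74 to -0.53 for Ms4a2 and -1.02 to -0.76 for Fcer1a. Mcpt8 passed in all 10 fits that left out 1 mouse, Prg2 in 5, Prg3, Ms4a2 and Fcer1a in 3 each and Ccr3 in 2. The number of the 9 genes called was 1 without sudemycin-treated replicate 8 or 12 or vehicle-treated replicate 3 or 5, and 2 without sudemycin-treated replicate 9 or vehicle-treated replicate 1 or 4, beside 6 with all mice.

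In U2AF1(S34F) mice the drug was compared with vehicle in the same way, and the 2 genes that passed were the neighbours Prg2 and Prg3. These 2 of 9 were lower and none was higher, where 5.85% of all 14714 genes tested were called lower. All 9 log2 fold changes were negative, with a median of -0.38 beside -0.01 for all genes. Prg2 was 155, 181, 134, 207 and 158 CPM in the vehicle-treated mice and 73.1, 72.6, 104, 91.5 and 68.5 in the treated mice. Prg3 was 5.46, 6.32, 6.05, 8.12 and 6.21 and 3.08, 2.52, 3.64, 4.17 and 2.52. For both genes every treated mouse lay below every vehicle-treated mouse, which was so for 3.97% of all genes. Prg2 fell from 167 ± 27.7 to 81.96 ± 15.2 (SD, n = 5 each), 2.04-fold (log2 fold change -1.03, SE 0.13, adjusted p = 0.00182, edgeR). Prg3 fell from 6.43 ± 0.998 to 3.19 ± 0.717, 2.01-fold (-1.01, SE 0.16, adjusted p = 0.00541, edgeR). Both passed in all 10 fits that left out 1 mouse.

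The other 3 eosinophil genes did not pass in U2AF1(S34F) mice. Epx was 31.5, 35.8, 25.01, 42.6 and 34.3 under vehicle and 25.6, 21.2, 33.8, 30.8 and 18.9 under the drug, so the groups overlapped, and its log2 fold change was -0.38 (SE 0.17, adjusted p = 0.208, edgeR). Il5ra had a median of 3.17 (2.68 to 5.58) under vehicle and 2.41 (1.91 to 3.34) under the drug (log2 fold change -0.60, SE 0.21, adjusted p = 0.115, edgeR). Ccr3 ranged widely between mice, at 3.08 to 8.66 under vehicle and 1.95 to 5.62 under the drug (-0.56, SE 0.30, adjusted p = 0.306, edgeR).

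The 4 basophil and mast cell genes overlapped between treated and vehicle-treated U2AF1(S34F) mice. Mcpt8 was 50.7, 57.6, 36.6, 26.9 and 32.2 under vehicle and 60.8, 24.99, 24.5, 33.9 and 32.1 under the drug. Fcer1a was 15.1, 16.3, 9.84, 7.48 and 9.45 and 14.8, 7.17, 8.36, 7.71 and 7.76, and Ms4a2 was 22.3, 22.4, 14.99, 14.4 and 15.8 and 22.6, 12.3, 14.5, 15.3 and 13.04. The highest treated value of all 3 genes was in replicate 2. With all mice the log2 fold changes were -0.21 for Mcpt8 (SE 0.28), -0.34 for Fcer1a (SE 0.25), -0.21 for Ms4a2 (SE 0.18) and -0.05 for Cpa3 (SE 0.25), and the lowest adjusted p among them was 0.449 (edgeR). Cpa3 ranged from 11.4 to 23.3 under vehicle and from 11.8 to 26.3 under the drug. Without replicate 2 the values were -0.50 for Mcpt8 (SE 0.22), -0.59 for Fcer1a (SE 0.21), -0.38 for Ms4a2 (SE 0.15) and -0.30 for Cpa3 (SE 0.19), and none of these passed (lowest adjusted p = 0.159, edgeR). Leaving out that mouse also brought Il5ra under the threshold (-0.74, adjusted p = 0.0955, edgeR), so 3 of 9 genes were then called, and leaving out vehicle-treated replicate 11 did the same, while the exclusion of replicate 2 took the number of all genes called from 1588 to 913.

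With both genotypes in a single fit and genotype as a term, 6 of the 9 genes were lower in treated mice and none was higher, where 7.22% of 15392 genes tested were called lower. Prg3 (log2 fold change -0.84, SE 0.12, adjusted p = 0.000146) and Prg2 (-0.79, SE 0.11, adjusted p = 8.61e-05) fell most by this edgeR fit. Mcpt8 (-0.72, SE 0.23, adjusted p = 0.055), Fcer1a (-0.61, SE 0.19, adjusted p = 0.0508), Ccr3 (-0.57, SE 0.18, adjusted p = 0.0417) and Ms4a2 (-0.42, SE 0.13, adjusted p = 0.053) also fell. Il5ra (-0.34, adjusted p = 0.226), Cpa3 (-0.29, adjusted p = 0.347) and Epx (-0.18, adjusted p = 0.405) did not pass the edgeR test. Prg2, Prg3, Ccr3 and Fcer1a passed in all 20 fits that left out 1 mouse, Mcpt8 in 18 and Ms4a2 in 17. Mcpt8 was lost without vehicle-treated U2AF1(S34F) replicate 3 or sudemycin-treated U2AF1(WT) replicate 8. Ms4a2 was lost without vehicle-treated U2AF1(S34F) replicate 1 or vehicle-treated U2AF1(WT) replicate 3 or 5. Without sudemycin-treated U2AF1(S34F) replicate 2 Cpa3 also passed (-0.42, adjusted p = 0.0955, edgeR), and Mcpt8, Fcer1a and Ms4a2 stood at -0.88, -0.74 and -0.51.

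Whether the drug acted differently in the 2 genotypes was tested by the interaction term over 20 mice. None of the 9 genes was called by edgeR, where 0.013% of all genes were, and none by DESeq2. At an unadjusted p under 0.05, 2 of 9 differed, beside 7.43% of all genes. For Mcpt8 the drug effect was less negative in U2AF1(S34F) mice by 1.02 on the log2 scale (SE 0.39, adjusted p = 0.535, edgeR), and by 0.73 without sudemycin-treated U2AF1(S34F) replicate 2. For Prg2 the drug effect was more negative in U2AF1(S34F) mice, at -0.48 (SE 0.20, adjusted p = 0.551, edgeR). A drug effect that passed in only 1 genotype is therefore not shown to differ from the other.

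**Figure D2:**
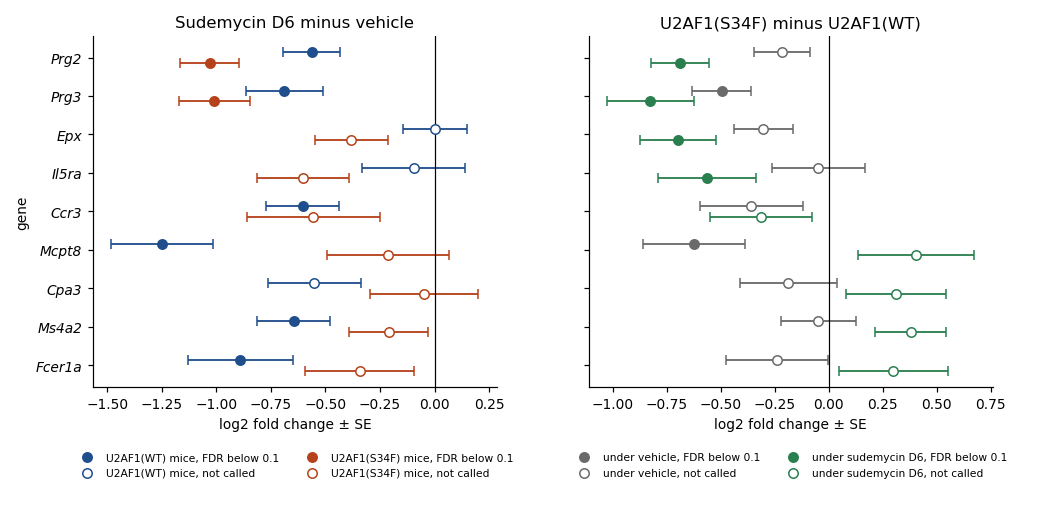
Log2 fold changes with SE (horizontal axes) of the 9 genes: sudemycin D6 minus vehicle in each genotype (left) and U2AF1(S34F) minus U2AF1(WT) under each treatment (right), n = 5 mice per group; filled points passed an FDR below 0.1 and open points did not. All 9 drug effects in U2AF1(S34F) mice lie below 0, and under sudemycin D6 the genotype difference is negative for the 5 eosinophil genes and positive, though not called, for the other 4.

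U2AF1(S34F) mice were next compared with U2AF1(WT) mice under vehicle. Prg3 (log2 fold change -0.50, SE 0.14, adjusted p = 0.0152) and Mcpt8 (-0.62, SE 0.24, adjusted p = 0.0708) were lower by edgeR, and the other 7 did not pass. This count of 2 in 9 stood near the 19.8% of all 14817 genes that were called lower. The groups overlapped in all 9. Among all genes, 10.3% (1531) had every U2AF1(S34F) mouse below every U2AF1(WT) mouse, and 1468 had the reverse. Mean Prg3 was 9.02 ± 1.34 in U2AF1(WT) and 6.43 ± 0.998 in U2AF1(S34F) mice (SD, n = 5 each). Prg3 passed in all 10 fits that left out 1 mouse. Mcpt8 passed in 4 of 10, and was lost without U2AF1(S34F) replicate 5, 7 or 11 or U2AF1(WT) replicate 3, 4 or 5. Epx (-0.30, adjusted p = 0.106) and Prg2 (-0.22, adjusted p = 0.225) had the next lowest adjusted p-values by edgeR, and both passed without U2AF1(S34F) replicate 7 or U2AF1(WT) replicate 2, as did Ccr3 without U2AF1(S34F) replicate 3. Summed markers of neutrophils, at 68800 to 76530 CPM in U2AF1(WT) and 89600 to 145300 in U2AF1(S34F) mice, moved with genotype under vehicle. Of the 13 markers 6 were called higher, beside 2921 of all 14817 genes tested, and none was at 0 in any group. Of 8 monocyte and macrophage markers 5 were lower, at sums of 3108 to 4532 and 1930 to 3508 CPM. The part of these cells in the differences was not tested.

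Under sudemycin D6 the 3 eosinophil granule genes separated the genotypes. Prg2, Prg3 and Epx were each lower in U2AF1(S34F) mice, with every U2AF1(S34F) mouse below every U2AF1(WT) mouse, as was so for 9.3% of all genes. With Il5ra, 4 of 9 genes were called lower and none higher, against 19.6% of all 14677 genes. Prg2 differed by -0.69 on the log2 scale (SE 0.13, adjusted p = 0.00321), Prg3 by -0.83 (SE 0.20, adjusted p = 0.0104) and Epx by -0.70 (SE 0.18, adjusted p = 0.012, edgeR for all 3), and each passed in all 10 fits that left out 1 mouse. Epx, at 34.7 to 53.3 in treated U2AF1(WT) and 18.9 to 33.8 in treated U2AF1(S34F) mice, had its highest U2AF1(S34F) value just under the lowest U2AF1(WT) value. Il5ra (-0.56, SE 0.23, adjusted p = 0.0853, edgeR) passed in only 2 of the 10 fits that left out 1 mouse, those without U2AF1(S34F) replicate 2 or U2AF1(WT) replicate 9. Mcpt8 (0.40, SE 0.27), Ms4a2 (0.38, SE 0.17), Cpa3 (0.31) and Fcer1a (0.30) were not called, though Ms4a2 passed as higher without U2AF1(S34F) replicate 6 or 12 or U2AF1(WT) replicate 10. Without U2AF1(S34F) replicate 2 these 4 differences were 0.12, 0.21, 0.06 and 0.06.

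Markers of other cells also moved with genotype under the drug, with none at 0 in the lists named here. Among all 14677 genes tested 2884 were called lower and 2518 higher. Of 8 B cell markers 6 were lower (median log2 fold change -1.55), and their sum was 28.27 to 206.5 CPM in treated U2AF1(WT) and 39.41 to 56.5 in treated U2AF1(S34F) mice. Of 8 erythroid markers 5 were lower (median -1.14, sums of 51.38 to 185.7 and 55.14 to 100.8 CPM), and of 8 T and NK cell markers 3 were lower. Of 13 neutrophil markers 4 were higher (sums of 64110 to 111300 and 77880 to 127100 CPM), and of 8 monocyte and macrophage markers 3 were higher and 1 lower. The sums overlapped between the genotypes, and the part of these cells in the levels of the 9 genes was not tested.

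Mutation and drug together were read from sudemycin-treated U2AF1(S34F) against vehicle-treated U2AF1(WT) mice, which share both groups with the comparisons above. By edgeR 7 of 9 genes were lower, against 25.1% of all 14761 genes. Called higher were 3706 of all genes and none of the 9. Prg3 fell 2.81-fold (log2 fold change -1.49, SE 0.16, adjusted p = 2.09e-05) and Prg2 by -1.23 (SE 0.14). Epx (-0.67, adjusted p = 0.00529), Ccr3 (-0.89), Mcpt8 (-0.82, adjusted p = 0.0393), Il5ra (-0.63, adjusted p = 0.0177) and Fcer1a (-0.56, adjusted p = 0.0703) were also lower by edgeR. Prg2, Prg3 and Epx had every sudemycin-treated U2AF1(S34F) mouse below every vehicle-treated U2AF1(WT) mouse, as was so for 12.3% of all genes. Ms4a2 (-0.24) and Cpa3 (-0.21) did not pass with all mice. Without sudemycin-treated replicate 2 all 9 passed, Ms4a2 at -0.41 (adjusted p = 0.0587) and Cpa3 at -0.47 (adjusted p = 0.0605, edgeR). Fcer1a was lost without U2AF1(S34F) replicate 6, 9, 10 or 12 or U2AF1(WT) replicate 3 or 5. In the same comparison 8 of 8 B cell markers (median -1.60), 5 of 8 erythroid markers (median -1.24) and 4 of 7 stem and progenitor cell markers were lower, 6 of 13 neutrophil markers were higher, and of 8 markers each of megakaryocytes and of T and NK cells 5 were lower and 2 higher. Their part in these differences was not tested.

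The ratio of 2 genes in the same mouse does not depend on how many cells of a lineage a sample held, so far as both genes come from those cells, and 16 such ratios within the lineages were computed after the levels had been seen. Over the 5 comparisons this gave 80 exact two-sided permutation tests, in which the smallest p that 5 against 5 mice allow is 0.00794. Prg2 to Epx was the clearest eosinophil ratio. It was 5.28, 4.38, 4.61, 4.26 and 4.71 in U2AF1(WT) mice under vehicle and 3.23, 3.52, 2.89, 2.57 and 3.72 in treated mice. In U2AF1(S34F) mice it was 4.93, 5.05, 5.37, 4.86 and 4.61 under vehicle and 2.86, 3.43, 3.08, 2.97 and 3.63 under the drug. Every treated mouse of either genotype lay below every vehicle-treated mouse of either genotype. The geometric mean went from 4.63 to 3.16 in U2AF1(WT) mice (log2 difference -0.55, SE 0.11, exact p = 0.00794, adjusted over the 80 tests 0.0353) and from 4.96 to 3.18 in U2AF1(S34F) mice (-0.64, SE 0.07, exact p = 0.00794, adjusted 0.0353). Between genotypes the same ratio differed by 0.10 under vehicle (exact p = 0.175) and by 0.01 under the drug (exact p = 0.929).

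Prg3 to Epx moved in the same way, from 0.218 to 0.134 in U2AF1(WT) mice (log2 difference -0.71, SE 0.11) and from 0.191 to 0.123 in U2AF1(S34F) mice (-0.64, SE 0.11), with no overlap in either (exact p = 0.00794, adjusted 0.0353 for both). Prg2 to Prg3 did not separate the treatments, at 0.16 (exact p = 0.0952) in U2AF1(WT) and -0.00 (exact p = 0.976) in U2AF1(S34F) mice. Of the 10 eosinophil ratios, these 2 with Epx were those without overlap in each drug comparison. Epx to Ccr3 rose in U2AF1(WT) mice with overlapping groups (log2 difference 0.60, exact p = 0.0238, adjusted 0.0828). In U2AF1(S34F) mice it differed by 0.15 (exact p = 0.714).

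Among basophil and mast cell genes, Mcpt8 fell relative to the other 3 in U2AF1(WT) mice. Its count was 3.50, 2.92, 3.50, 3.67 and 3.21 times that of Ms4a2 in the vehicle-treated and 2.57, 1.72, 2.25, 2.60 and 1.81 times in the treated mice. The geometric mean went from 3.35 to 2.16 (log2 difference -0.63, SE 0.14, exact p = 0.00794, adjusted 0.0353). Vehicle-treated U2AF1(S34F) mice already stood at 2.22, below every vehicle-treated U2AF1(WT) mouse (-0.59, SE 0.10, exact p = 0.00794, adjusted 0.0353), and the drug moved the ratio there by -0.02 (exact p = 0.865). Mcpt8 to Cpa3 showed the same separations, at 3.35 against 2.04 for the drug and against 2.46 for the genotype. Cpa3 to Fcer1a was the ratio of these 4 genes that rose under the drug without overlap. It went from 1.37 to 1.76 in U2AF1(WT) mice (log2 difference 0.36, SE 0.08). In U2AF1(S34F) mice it went from 1.43 to 1.74 (0.28, SE 0.06, exact p = 0.00794, adjusted 0.0353 for both genotypes). Sudemycin-treated U2AF1(S34F) replicate 2, at 1.78, lay among the other 4 mice of its group (1.64 to 1.95) in this ratio, unlike in the levels. Genotype under vehicle moved Cpa3 to Fcer1a by 0.06 (exact p = 0.238). Leaving out any 1 mouse changed the sign of none of the ratios named here as separated.

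**Figure D3:**
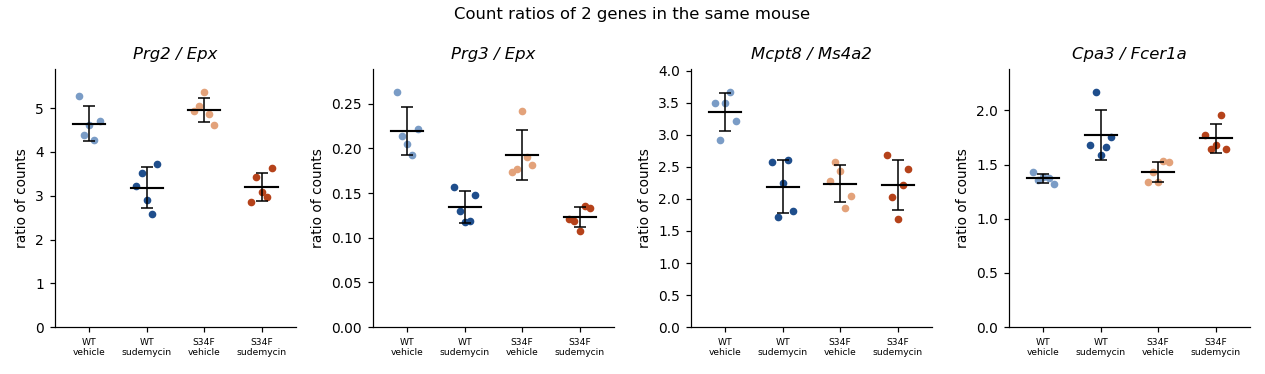
Ratio of the counts of 2 genes in the same mouse (linear axes from 0) for Prg2 to Epx, Prg3 to Epx, Mcpt8 to Ms4a2 and Cpa3 to Fcer1a; points are mice, lines are means and bars are 1 SD (n = 5). The ratios to Epx are lower and Cpa3 to Fcer1a is higher in treated mice of both genotypes, while Mcpt8 to Ms4a2 is high only in vehicle-treated U2AF1(WT) mice.

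Because sudemycin D6 and U2AF1 both act on splicing, the junction reads of the 9 genes were examined for exons that are included or skipped. As planned, the share of junction reads that the deposited table marks as skipping an exon was tested in 8 genes, leaving out Ccr3, which had under 20 junction reads in some mice. This measure is coarse, since the mark also falls on constitutive junctions of Prg3 and Epx. It covered 26.6% of the Prg3 and 5.89% of the Epx junction reads. None of 40 exact permutation tests passed after Benjamini-Hochberg adjustment (lowest adjusted p = 0.106), and 11 had an unadjusted p under 0.05. With 5 against 5 mice the smallest possible p is 0.00794, so a single test alone could not pass among 40. The absence of calls is therefore no sign of unchanged splicing. A direct measure was then added after the junctions had been seen: the inclusion share of 6 annotated exons that some junction reads skipped, in Prg2, Prg3, Mcpt8, Ms4a2 (2 forms of 1 exon) and Fcer1a. The skipping junction itself was annotated for Prg3 only, and for the others it joined 2 annotated exon ends in a pairing that is not annotated. Of its 30 exact permutation tests 8 had an unadjusted p under 0.05 and none passed at an adjusted p below 0.1 (lowest 0.119). Here too a single test at the smallest possible p could not pass alone, so the shares below are descriptions.

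The exons of the IgE receptor chains are the smallest and their sequences are printed 5′ to 3′ in NCBIM37, with capitals for exon bases and lower case for the intron bases beside them. Both end their upstream intron in cag, and U2AF1 is known to contact the AG at this place and the bases around it.
Fcer1a exon of 21 bases (chr1:175156852-175156898, minus strand): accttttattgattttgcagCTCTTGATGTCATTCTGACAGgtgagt
Fcer1a next acceptor (chr1:175155686-175155708, minus strand): acaattttactttctttaagCCA
Ms4a2 exon, short form of 15 bases (chr19:11696647-11696687, minus strand): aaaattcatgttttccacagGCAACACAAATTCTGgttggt
Ms4a2 next acceptor (chr19:11694161-11694183, minus strand): ccctgtttccttttggacagTTT
Prg3 exon acceptor (chr2:84829362-84829384, plus strand): aggttatctcttcttcctagAGA
Prg3 next acceptor (chr2:84831539-84831561, plus strand): cctaactcttctctcttcagAGA
The acceptor after the Fcer1a exon ends in aag, that of the Prg3 exon in tag, and the others shown in cag. The Fcer1a exon of 21 bases and the Ms4a2 exon in both its forms (135 and 15 bases from the same acceptor) are coding and multiples of 3, so that skipping keeps the reading frame. The exons of Prg3 (308 bases), Mcpt8 (148) and Prg2 (112) are coding and not multiples of 3.

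The Fcer1a exon was included less under sudemycin D6 in its group means. In U2AF1(WT) mice its share was 0.833, 0.807, 0.833, 0.985 and 0.944 under vehicle and 0.747, 0.860, 0.685, 0.764 and 0.718 under the drug, a mean of 0.881 against 0.755 (exact permutation p = 0.0317, adjusted 0.136). In U2AF1(S34F) mice it was 0.869, 0.871, 0.880, 0.783 and 0.871 and 0.737, 0.780, 0.907, 0.695 and 0.712, a mean of 0.855 against 0.766 (exact permutation p = 0.0794). The groups overlapped in both genotypes, and 107 to 454 junction reads per mouse stood behind each share.

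The Ms4a2 exon had the opposite order of means. The 135-base form was included at 0.645, 0.649, 0.739, 0.468 and 0.695 in vehicle-treated and 0.695, 0.869, 1, 0.846 and 0.843 in treated U2AF1(WT) mice (means 0.639 and 0.851, exact permutation p = 0.0238, adjusted 0.136). In U2AF1(S34F) mice the means were 0.701 and 0.806 (exact permutation p = 0.0476, adjusted 0.179). The 135-base form rested on 29 to 161 reads per mouse, of which 7 to 64 crossed the junction of its own donor. The other inclusion junction, with 22 to 85 reads, enters at the acceptor that both forms use, so the share counts reads of the 15-base form too. The 15-base form had only 0 to 16 reads on the junction of its own donor, and its share, which holds the lowest adjusted p above, is no measure of that form and is not given. Prg3 exon inclusion averaged 0.713 under vehicle and 0.532 under the drug in U2AF1(WT) mice (exact permutation p = 0.0556), beside 0.582 and 0.534 in the U2AF1(S34F) groups. The planned share of Prg3 reads marked as skipping showed another pattern. Its mean was 23.9% in both U2AF1(WT) groups, and 30.3% and 30.5% in U2AF1(S34F) mice under vehicle and drug. Between genotypes under the drug the exact permutation p was 0.00794 (adjusted 0.106). The Mcpt8 exon stayed at 0.924 to 0.940 and the Prg2 exon at 0.994 to 0.998 in the group means.

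**Figure D4:**
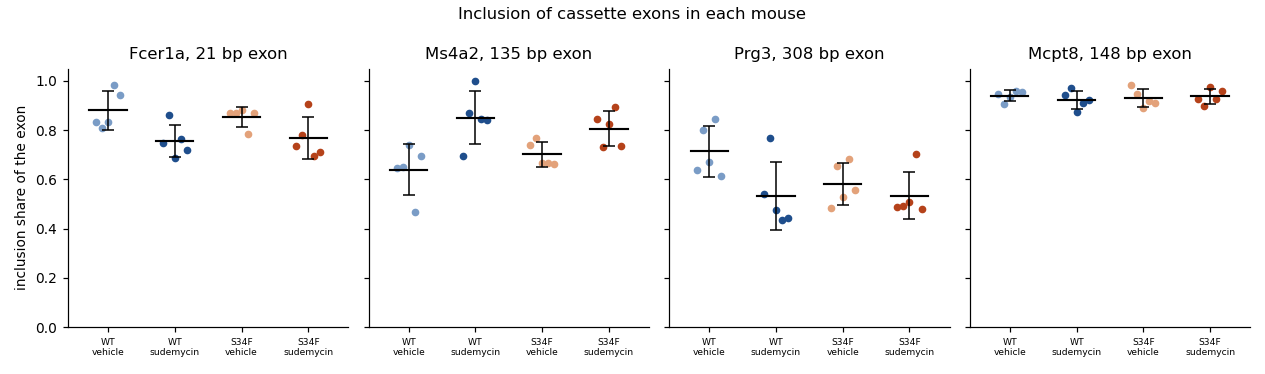
Inclusion share (0 to 1) of 4 cassette exons in each mouse, as the mean of the 2 inclusion junctions over that mean plus the skipping junction; points are mice, lines are means and bars are 1 SD (n = 5). Fcer1a inclusion is lower and Ms4a2 inclusion higher in the means of the treated groups, while Mcpt8 is near 0.93 in all.

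Between mice of the same group, the 9 genes formed 2 closely correlated sets, the 4 basophil and mast cell genes and the 3 eosinophil granule proteins. Over the 20 mice, the deviations of log2 CPM from the group mean were compared for all 36 pairs, with permutation of mice within groups. All 6 pairs of the basophil and mast cell genes were correlated (Pearson r 0.86 to 0.97, Spearman rho 0.75 to 0.90, permutation p at most 0.00063, and r at least 0.809 without the 2 mice farthest from the median). The closest pair was Cpa3 and Fcer1a (Pearson r = 0.97, Spearman rho = 0.90, permutation p = 1e-05 for both, the smallest that these permutations can give). Prg2, Prg3 and Epx formed the other set, with Pearson r of 0.85 for Prg2 and Prg3, 0.86 for Prg2 and Epx and 0.82 for Prg3 and Epx (Spearman rho 0.84, 0.80 and 0.81, permutation p at most 0.00046, and r of 0.86, 0.81 and 0.82 without the 2 farthest mice).

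Il5ra and Ccr3, the 2 receptors of eosinophils, varied together (Pearson r = 0.72, Spearman rho = 0.75, permutation p = 0.00023 for r and 0.00046 for rho, adjusted over 36 pairs 0.0009 for r, r = 0.73 without the 2 farthest mice). With Prg2, Prg3 and Epx both had r between 0.13 and 0.44, and none of these 6 pairs had an adjusted permutation p under 0.05. With the 4 basophil and mast cell genes they had r of 0.60 to 0.73 and rho of 0.53 to 0.73, and all 8 of those pairs passed at 0.05. The remaining 12 pairs, between the granule proteins and the basophil and mast cell genes, did not pass. Genes in 1 library share its depth and composition, and the direct test of whether Il5ra or Ccr3 lies nearer to one set than the other was not made.

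**Figure D5:**
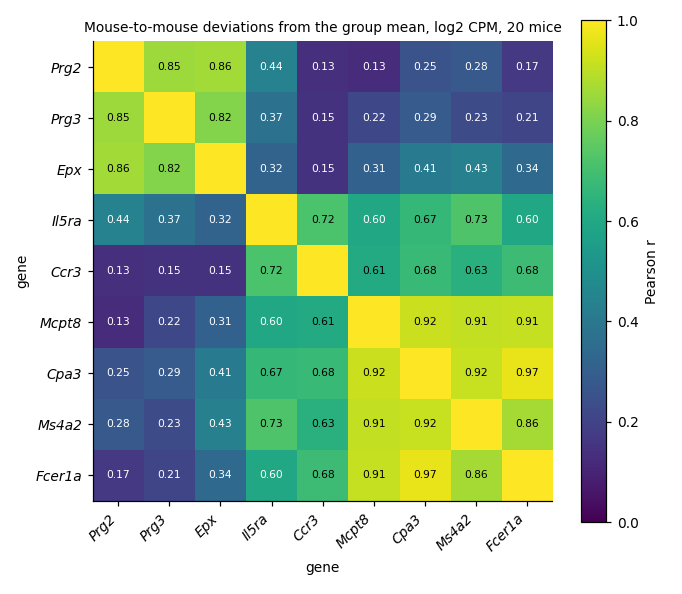
Pearson r (colour, 0 to 1, and printed) between the deviations from the group mean of log2 CPM for each pair of the 9 genes over 20 mice. Mcpt8, Cpa3, Ms4a2 and Fcer1a form a block at 0.86 to 0.97, Prg2, Prg3 and Epx a block at 0.82 to 0.86, and Il5ra and Ccr3 stand nearer in r to the first block.

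Of 12203 other genes with a mean of at least 1 CPM, those most like the mean of Mcpt8, Ms4a2 and Cpa3 in these deviations were Prss34 (Pearson r = 0.89), a basophil protease, Cd200r3 (0.89), a receptor of basophils and mast cells, Tet1 (0.84), Ikzf2 (0.84) and Rabgap1l (0.83), over the same 20 mice. Those most like the mean of Prg2, Prg3 and Epx were Abcb10 (0.82), Arhgef40 (0.79), Per3 (0.77), Cables1 (0.76) and Gm8113 (0.76). These are descriptions of libraries that share depth and composition, with no test.

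Other genes of the same lineages were read from 5 lists in the fit over both genotypes. Their counts stand beside 1112 genes called lower and 1197 called higher among all 15392 tested. Of 12 other eosinophil genes measured and 11 tested, 6 were lower and 1 higher under the drug, with a median log2 fold change of -0.50 beside 0.01 for all genes. Ear1 (-1.07, adjusted p = 3.42e-05) and Ear6 (-1.07, adjusted p = 5.98e-05), ribonucleases of eosinophil granules, fell most by edgeR, though reads of near-identical Ear copies may be split between them. Serpinb2 (-0.97), a protease inhibitor, and Alox15 (-0.65), a lipoxygenase of eosinophils and macrophages, were also lower. Of 37 other basophil and mast cell genes measured, 24 were tested, 8 were lower and 3 higher (median -0.31). Cyp11a1 (-0.74), Gata2 (-0.70), the GATA factor of basophils and mast cells, and Slc18a2 (-0.61), which loads amines into granules, were lower, and Il1rl1 (0.56), the interleukin 33 receptor, was higher.

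Of 20 genes of the IgE receptor's signalling, 3 were lower and 2 higher under the drug, with a median of 0.03. The receptor's shared gamma chain, Fcer1g, which many myeloid cells also carry, was at means of 222 to 260 CPM and did not pass (0.17, adjusted p = 0.220, edgeR), unlike Fcer1a and Ms4a2. Members that passed included Cd84 (-0.31), Plcg1 (-0.21) and Pik3cd (0.16). Of 26 ligands and receptors of the interleukin 5, interleukin 3, GM-CSF and chemokine systems, 21 were tested, 3 were lower and 2 higher (median -0.02). Csf2rb (0.36), the beta chain that pairs with Il5ra, and its paralog Csf2rb2 (0.89) were higher, with reads that the near-identical copies may share, and the chemokines Ccl6 (-0.78) and Ccl5 (-0.75) were lower. Il5 itself had 0 or 1 count in each mouse. Of 22 transcription factors of these lineages 4 were lower and 1 higher (median -0.02), and Gata2 (-0.70), Trib1 (-0.58), Ikzf2 (-0.54) and Tal1 (-0.48) were the lower 4. Without sudemycin-treated U2AF1(S34F) replicate 2 the counts lower and higher were 6 and 0, 8 and 3, 1 and 2, 2 and 2, and 4 and 1 for the 5 lists in this order.

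Markers of other cells also moved with the drug. Among all 15392 genes tested over both genotypes 1112 were called lower and 1197 higher. Stem and progenitor cell markers were lower, as a sum of 7 genes at 104.5 to 153.7 CPM in vehicle-treated and 65.26 to 130.3 in treated U2AF1(WT) mice, and at 133.4 to 174.0 and 92.68 to 124.6 in U2AF1(S34F) mice, with 5 of the 7 called lower over both genotypes and none at 0. Gata2 is expressed by such progenitors as well as by basophils and mast cells. Over both genotypes 4 of 8 megakaryocyte markers were lower and 1 higher (median -0.51), at sums of 45.82 to 75.09 CPM under vehicle and 42.65 to 70.52 under the drug in U2AF1(WT) mice and of 50.32 to 72.08 and 42.1 to 82.26 in U2AF1(S34F) mice. Of 6 dendritic cell markers 2 were lower and 1 higher (median -0.47), and of 8 B cell markers 2 were lower. The part of these cells in the levels of the 9 genes was not tested.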

How the data were processed

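Bulk bone marrow RNA of 20 mice was sequenced by the authors as stranded paired-end reads of 126 bp after removal of ribosomal RNA. Per the submitters' processing notes, reads were aligned with TopHat2 2.0.8 to mm9 and handled with SAMtools, and the program that counted genes is not given in the sources used here. The authors deposited raw counts of reads per gene (37620 genes) and per splice junction (554616 junctions), with 1 column per mouse and no normalization. A further deposited column marks each junction as skipping an exon or not, as a score of 0 or 1. Groups were taken from the genotype and treatment labels. No mice had identical values.

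The gene tests used R 4.3.3 and edgeR 4.0.16 (filterByExpr, TMM factors, robust quasi-likelihood fit, prior count of 2, Benjamini-Hochberg adjustment over all genes tested, calls at an FDR below 0.1), each of 5 comparisons on its own 10 mice, and the drug over both genotypes and the interaction on all 20. The fit was tested on simulated data with known changes. Alternatives were DESeq2 1.42.0, its size factors, other filters, an FDR of 0.05, 1 model of all mice, fits with the replicate number as a block and fits without each mouse. Junction shares, ratios and correlations used permutation tests in Python 3.11.15 with scipy 1.17.1. Levels are CPM, over each library's total of filtered genes times its TMM factor, with filter and factors taken from all 20 mice. The 9 genes and all lists were chosen with earlier results of these data known. Beyond the 9 genes and U2af1, up to 4 genes per list were named by the largest drug effect over both genotypes among those called with a mean of at least 1 CPM, and 5 by likeness to each set. Tpsab1, Tpsb2, Mcpt4, Cma1, Fcer1g and Il5 were named outside this rule. Ratios, cassette exons, first-exon junctions, the match of RefSeq promoters to NCBIM37 and the exclusion of 1 mouse from the lists were added after seeing the data. Exact-match positions come from NCBIM37, the build of the files, and printed promoters from RefSeq in GRCm38.p6. Among the genes the naming rule gave, 1 is not reported here.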

Additional observations from a re-analysis of the deposited data

Results flagged for a closer look

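Sudemycin-treated U2AF1(S34F) replicate 2 lay far above the other 4 mice of its group in each of the 4 basophil and mast cell genes. Mcpt8 was 60.81 CPM there and 33.87 in the next mouse. Cpa3 was 26.33 against 15.06, Ms4a2 was 22.59 against 15.3 and Fcer1a was 14.84 against 8.356. The gap to the next mouse was tested by Dixon's ratio in 36 groups (9 genes in 4 groups of 5 mice), of which chance marks about 1 in 20, and the 4 genes are not independent, since they varied together between mice. The same mouse did not stand apart in Prg2, Prg3, Epx or in the ratio of Cpa3 to Fcer1a. In Il5ra (3.344 CPM against 2.431 in the next mouse) and Ccr3 (5.625 against 4.171) it was also the highest of its group. Dixon's ratio did not mark it in these genes.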

How the results depend on the processing

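The limits are few mice, low counts of Il5ra, Ccr3 and Prg3, genotype tied to sex, and few junction reads in some genes. With so few mice, the smallest possible p of the exact tests was too large for a single junction or exon share to pass alone. Where a value changed below, the cause was not tested, beyond the fewer mice or genes that an alternative uses.

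Genes called in U2AF1(WT) mice for the drug were 453, and 811 by DESeq2, 243 at an FDR below 0.05 and 1072 in 1 model of all mice. In U2AF1(S34F) mice they were 1588, and 826 at an FDR below 0.05 and 788 in 1 model. Over both genotypes they were 2309, and 1513 at an FDR below 0.05. For the interaction they were 2, and 8 with at least 1 CPM in 5 mice, 116 by DESeq2 and 10 with no filter. Of the 9 genes, those called were 2 for genotype under vehicle, and 1 at an FDR below 0.05, with no filter or in 1 model. They were 6 for the drug in U2AF1(WT) mice and 2 at an FDR below 0.05, and 6 over both genotypes and 3 at an FDR below 0.05. Of the 40 tests of the skipping share 0 passed, and 3 with at least 100 reads (of 35 tests) and 11 by unadjusted p. Over fewer tests the same p adjusts to a lower value.

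Leaving out 1 mouse gave 4817 to 6943 genes for genotype under vehicle, 191 to 730 and 913 to 1736 for the drug in U2AF1(WT) and U2AF1(S34F) mice, 4363 to 5796 for genotype under the drug, 6421 to 8373 for both, 1824 to 3033 for the drug over both genotypes and 2 to 87 for the interaction. Of the 9 genes it gave 1 to 4, 1 to 6, 2 to 3, 3 to 4, 6 to 9, 5 to 7 and 0 to 0 in the same order, and 0 to 5 tests of the skipping share.

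Of the 63 fold changes, 7 changed sign under some alternative, none of them called. Epx for the drug in U2AF1(WT) mice was -0.00187 with at least 1 CPM in 5 mice and -0.0928 to 0.102 without 1 mouse. Fcer1a for genotype under the drug was -0.00695 with the replicate block. Without 1 mouse the ranges were -0.214 to 0.0759 for Il5ra and -0.138 to 0.0661 for Ms4a2 (genotype under vehicle), -0.192 to 0.0629 for Il5ra (drug, U2AF1(WT)), -0.301 to 0.106 for Cpa3 (drug, U2AF1(S34F)) and -0.146 to 0.241 for Ccr3 (interaction). Levels under DESeq2 size factors stayed within 1 SD in all 36 groups.

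Genotype groups share only replicate numbers 1, 3 and 5 under vehicle and 6, 9, 10 and 12 under the drug. Same-numbered mice deviated together with r of -0.18 to 0.37. The highest r with another number was 0.04 to 0.35, and lower than the same-number r for vehicle replicate 3 and drug replicate 10. So few pairs cannot show whether the numbers pair the mice, and the main tests did not pair them. With the replicate block on the mice that share a number, 4 of the 9 genes were called under vehicle and 3 under the drug.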
